A study of Mus musculus with 2 samples.

Results

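Ptk7 and 8 genes of the planar cell polarity pathway were followed across cell classes of mouse embryo tissue dissected around the cardiac neural crest, in a WT and a KO library. The 9 members were chosen from the 18131 genes measured with earlier results of these data known, and their levels and ratios are therefore a description with no test. They are Ptk7, Ror2, Celsr1, Celsr2, Vangl1, Vangl2, Prickle1, Dvl2 and Scrib.

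Planar cell polarity is the alignment of cells within the plane of a tissue. Core membrane proteins of the Frizzled and Vangl families sort to opposite sides of each cell and recruit Dishevelled and Prickle proteins to them. Celsr proteins link neighbouring cells, and co-receptors such as Ptk7 and Ror2 tie the system to Wnt ligands. The pathway is known for closure of the neural tube, for the shaping of the heart outflow tract and for the directed migration of neural crest cells (NCCs).

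The series asks what Prdm6, a histone methyltransferase gene, does in cardiac NCCs of E9.5 embryos, by RNA sequencing of single cells. Embryos of the WT group were Prdm6+/+; Wnt1-Cre2; ZsGreen1 and those of the KO group Prdm6f/f; Wnt1-Cre2; ZsGreen1, all of the C57BL/6 strain, so the controls carried the Cre transgene and the green reporter too. Cre is made in the Wnt1 lineage, and the floxed part of Prdm6 is deleted in these cells and not in the other lineages of the dissected tissue, which ran from the otic placode to somite 4. Per the methods, samples were barcoded, pooled and told apart afterwards by MULTI-Seq. The tables used here name the library of a cell and no embryo, and each genotype has 1 library, so differences between the genotypes could not be checked against replicates.

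In WT 11958 cells gave 20781384 unique molecular identifiers (UMIs) at a median of 1597 per cell, and in KO 9765 cells gave 18936857 UMIs at a median of 1703. There were 26 cell barcodes found in both libraries, and without them no all-cell ratio of a member moved past its interval. Levels are UMIs per 1000000 UMIs (CPM) of a library or class, and ratios are log2 of KO over WT. Their exact intervals, at 95%, cover counting error only. Prdm6 itself stood at 5.00 CPM in WT (104 UMIs) and 3.12 CPM in KO (59 UMIs), a ratio of −0.68 (−1.17 to −0.21), and a 3′ UMI cannot show whether its allele was deleted.

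Cells were gated into 19 classes by the marker genes they held above the expectation for their depth, at least 2 markers for most classes. Of these classes 17 were kept, and each kept class is named after the tissue whose markers it carried and is to be read as X-like. Of the cells, 48.6% in WT and 43.9% in KO fell into a kept class. Although the labels call the samples cardiac NCCs, cells with the markers of migrating NCCs (Sox10, Foxd3 and others) made up 3.27% of WT and 3.11% of KO cells. The share of a class that met the gate with no marker to spare ranged from 1.36% in erythroid KO cells to 81.1% in pharyngeal mesoderm WT cells. Markers of 2 lists were present in a median cell of the other classes, with 5 to 6 UMIs of the erythroid list and 2 to 3 of the cardiac list, whereas other lists had at most 2. The part of such RNA in the values below was not tested. In erythroid cells the cardiac markers summed to 24.1% of their library level in WT and 26.8% in KO, those of head mesenchyme to 28.9% and 25.6%, of sclerotome and somite to 35.4% and 45.9%, and of the intermediate neural tube to 65.7% and 45.7%.

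Ptk7, a catalytically inactive receptor tyrosine kinase that acts as a Wnt co-receptor, was the 1 member of 9 whose ratio over all cells was past 0.32 in either direction, the limit used for single genes. It had 3603 UMIs in WT and 1390 in KO, which is 173 CPM (168 to 179) and 73.4 CPM (69.6 to 77.4). The KO level was 2.36-fold lower, at a ratio of −1.24 (−1.33 to −1.15). Of 10513 genes with at least 200 UMIs in both libraries together, 10.6% were past this limit downwards in KO, 3.86% upwards and 0.333% were at least 2-fold lower. Their median ratio was −0.06. Ptk7 was the 17th lowest of them. Among the 6300 genes with at least 1000 UMIs, 2 stood at or below its ratio, Ptk7 itself and Postn (−1.50), which encodes the matrix protein periostin and is named after its value was seen.

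The difference was in the number of cells with a Ptk7 UMI and in the UMIs of those cells. A Ptk7 UMI was found in 23.0% of WT cells (22.2% to 23.8%) and 12.6% of KO cells (12.0% to 13.3%). With every cell cut to 1000 UMIs drawn at random, and 1361 WT and 125 KO cells below that depth left out, the shares were 15.1% and 6.32%. Erythroid cells, taken as the class with the least reason to hold the gene, had one in 4.89% of cells in the WT library and 1.81% in KO, at median depths of 2026.5 and 2448 UMIs, and in 2.00% and 0.91% at the common depth. Among cells with a Ptk7 UMI, 24.4% in WT and 11.8% in KO had at least 2, and the most in a cell was 9 in WT and 5 in KO.

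**Figure D1:**
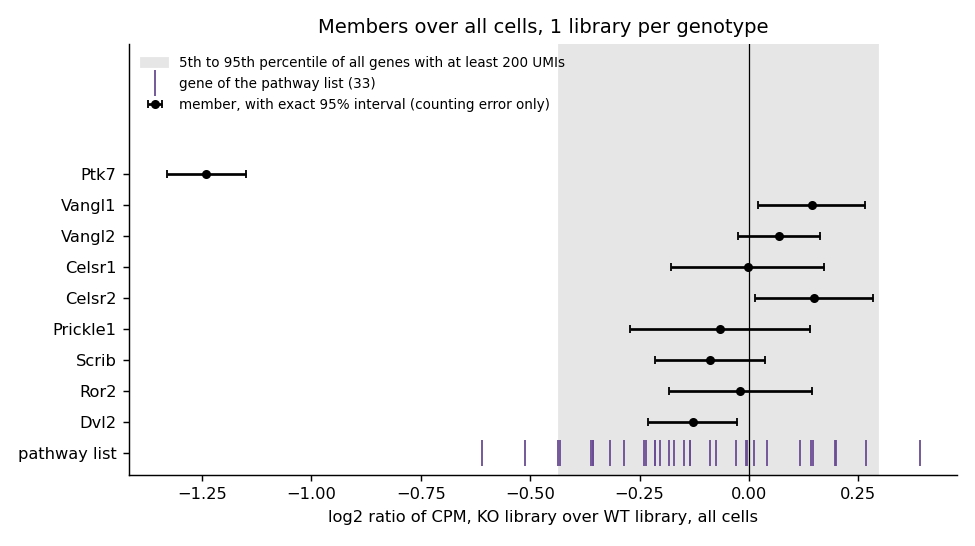
Log2 ratio of CPM, KO over WT, for each member over all cells (points, with exact 95% intervals of counting error), with the 33 pathway genes with at least 200 UMIs (ticks). The grey band is the 5th to 95th percentile of all 10513 genes with at least 200 UMIs, −0.44 to 0.30, and Ptk7 at −1.24 is the only member outside it.

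Ptk7 lies on chromosome 17 (46564471 to 46629504, minus strand, GRCm38, GENCODE vM21). It overlaps 1 other measured gene, Gm26904 on the opposite strand, with 3 UMIs in WT and 2 in KO. The 6 nearest measured protein-coding genes, 3 on each side and chosen by position, had ratios from −1.10 to 0.03. The value of −1.10 (−1.61 to −0.60) is that of Cul9, with 115 UMIs in WT and 49 in KO, and the flanking genes Srf (−0.14) and Klc4 (−0.28) had intervals that held 0. The sequence just before the start of Ptk7 is shown because it is the promoter of the member that differed most between the libraries. It is the reference sequence of RefSeq for GRCm38.p6, chr17:46629505-46629754, minus strand, written 5′ to 3′ and ending at the base before the start, with the GC box GGGCGG, a motif of Sp family factors, in capitals:
Ptk7: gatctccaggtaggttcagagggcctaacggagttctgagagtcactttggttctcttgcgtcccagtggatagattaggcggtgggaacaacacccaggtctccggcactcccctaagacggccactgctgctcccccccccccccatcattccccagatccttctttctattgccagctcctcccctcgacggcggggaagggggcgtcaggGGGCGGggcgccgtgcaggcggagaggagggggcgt
This window of 250 bases had a GC content of 64.0%, against a median of 52.4% over 32817 promoters of the same length, and 1 GC box, 36 bases before the start. A GC box on either strand was found in 32.7% of the promoters. The E-box CANNTG (66.2% of promoters), the SOX motif ACAATG (10.7%) and the TCF/LEF motif CTTTGAA (4.46%) had no match on either strand in these letters. A promoter entry matched 6 of the 9 members, all but Vangl1, Celsr1 and Scrib.

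Ptk7 was lower in the KO library in 17 of 17 classes, and the interval of the ratio lay below 0 in 15 of them. It did so in 4.25% of 164952 pairs of any gene and class that had a ratio. That share includes pairs with few UMIs, whose wide intervals seldom exclude 0, and is not matched to the counts of Ptk7. The 17 classes are readings of the same libraries and are not separate. In the classes of the Wnt1 lineage, migrating NCCs had 168 CPM in WT (143 to 198) and 84.4 in KO (65.5 to 107), a ratio of −0.997 (−1.43 to −0.57). Arch mesenchymal NCCs, marked by Dlx genes, had 187 and 81.1 CPM (−1.20, −2.13 to −0.34). The dorsal neural tube and roof plate, from which NCCs leave, had 126 and 72.1 CPM (−0.81, −1.46 to −0.17). The other 14 classes, among them lineages outside the reach of this Cre, had ratios of the same direction.

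The WT level was highest in 5 mesodermal classes. The dermomyotome and myotome class, the source of body muscle, had 341 CPM in WT (280 to 411) and 168 in KO (116 to 237), and Foxd1 Stra6 head mesenchyme had 323 (297 to 351) and 118 (102 to 136). Pharyngeal mesoderm had 293 CPM in WT and 119 in KO, sclerotome and somite 272 and 96.4, and splanchnic mesoderm 233 and 97.2. The WT and KO intervals of these 5 classes did not overlap, with log2 ratios from −1.49 in sclerotome and somite to −1.02 in dermomyotome and myotome.

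Endodermal, placodal and vascular classes lay between the mesodermal classes above and the neural tube by WT level, with intervals that overlapped in part. Pharyngeal and foregut endoderm had 218 CPM in WT and 91.9 in KO (log2 −1.25), the otic and epibranchial placode 187 and 129 (−0.53, −1.47 to 0.40), and endothelial cells 159.9 and 82.7 (−0.95). The placode, with 23 and 20 UMIs, was 1 of the 2 classes whose interval held 0.

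The neural classes and the heart were lower. In WT and KO, Ptk7 stood at 137 and 84.7 CPM in neurons (log2 −0.70), 125 and 54.2 in the floor plate (−1.20), 103 and 53.4 in the ventral neural tube (−0.94, −2.61 to 0.53) and 101 and 50.7 in the intermediate neural tube (−0.999). Cardiac muscle had 112 CPM in WT (96.4 to 129.7) and 41.3 in KO (30.3 to 54.9), a log2 ratio of −1.44 (−1.94 to −0.97). Erythroid cells had the lowest level in both libraries, 27.5 CPM from 32 UMIs and 7.22 CPM from 4 UMIs.

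The order of the classes by Ptk7 was broadly alike in the libraries, with the dermomyotome first and erythroid cells last in both. The otic and epibranchial placode came next after the dermomyotome in KO, whereas in WT it lay below splanchnic mesoderm and the endoderm class. Neighbours in the order of a library mostly overlapped: 1 neighbouring pair in each library had intervals apart, in both cases the erythroid class and the class above it. In WT the first class whose interval lay wholly below that of the dermomyotome was splanchnic mesoderm, at rank 5, and in KO it was migrating NCCs, at rank 9. Across the 17 classes the WT and KO profiles, as log2(CPM + 10), had a Pearson r of 0.95, and r without the erythroid class was not computed. Cells of no kept class, 6148 in WT and 5478 in KO, had 167 and 65.3 CPM (−1.35, −1.49 to −1.21).

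**Figure D2:**
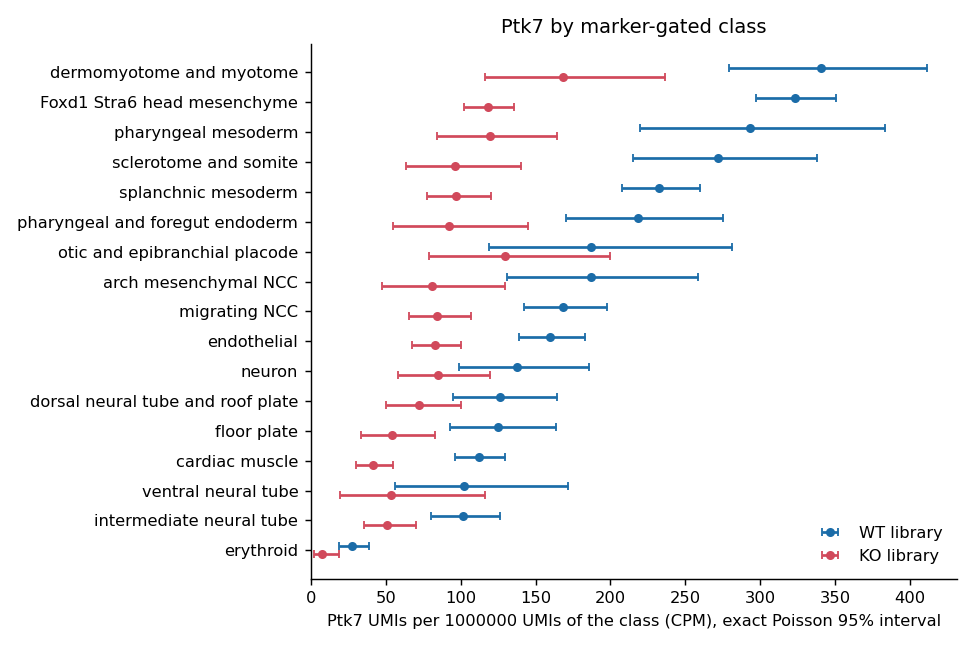
Ptk7 level in CPM in each marker-gated class of the WT (blue) and KO (red) libraries, with exact Poisson 95% intervals, ordered by the WT level. WT points run from 27.5 CPM in erythroid cells to 341 CPM in the dermomyotome class, and each KO point lies to the left of its WT point.

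Lower levels in KO in each of the 17 classes were found for 2.08% of the 2455 genes with at least 20 UMIs in each class, both libraries together. Of the members, 2 had enough UMIs for this count, and Ptk7 was the 1 that met it. At a minimum of 50 UMIs in a class, 14 classes could be read for Ptk7 and all 14 were at least 1.5-fold lower in KO, with a median log2 ratio of −1.20. Over all genes and classes, 5.55% of such pairs were at least 1.5-fold lower and 3.63% at least 1.5-fold higher in KO. Over all members, pairs past 1.5-fold in either direction numbered 22, and 13 with a gate of 1 more marker, under which fewer UMIs were counted. Because the library is the only unit for each genotype, a difference between genotypes and a difference between libraries cannot be told apart. Per the methods, the authors saw batch effects between the conditions in plots of the cells and corrected the graph of nearest cells. The values used here are recovered UMIs without that correction. Median depth was higher in KO than in WT in 16 of the 17 classes, and with all cells cut to the same depth the all-cell ratio of Ptk7 was −1.37.

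The other 8 members had all-cell ratios between −0.13 and 0.15. Of the 60 pairs of such a member and a class with at least 50 UMIs, 4 were at least 1.5-fold lower and 4 at least 1.5-fold higher in KO. Of the 131 pairs that had a ratio, which 5 others had too few UMIs for, the interval lay below 0 in 6 and above 0 in 6. Over all genes it did so in 4.25% and 3.87% of such pairs, a share not matched for UMIs.

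**Figure D3:**
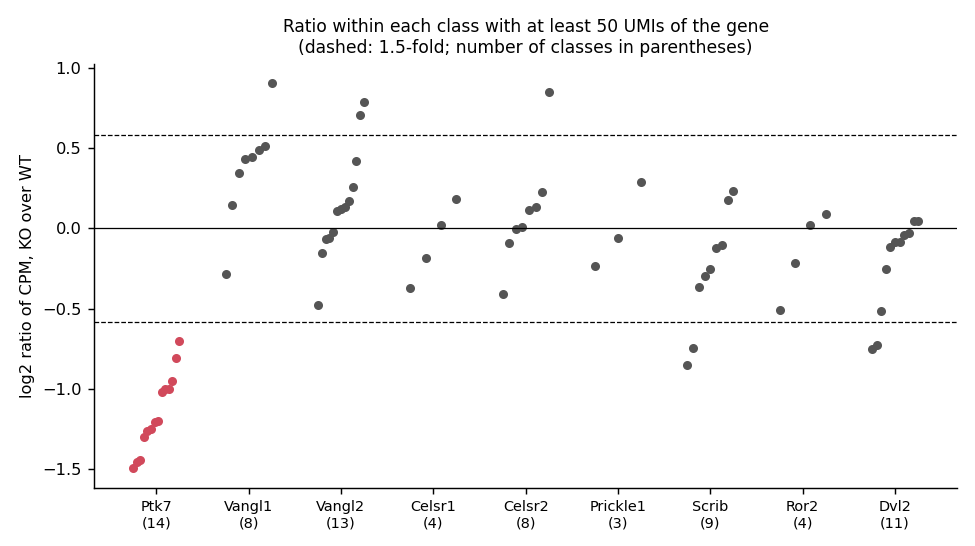
Log2 ratio of CPM, KO over WT, within each class that held at least 50 UMIs of the gene in both libraries together, 1 point per class. The 14 Ptk7 points (red) lie between −1.49 and −0.70, below the dashed 1.5-fold line, whereas 4 points of the other members lie below it and 4 above the upper line.

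Ror2 (chromosome 13, 53109312 to 53286124, minus strand), a receptor tyrosine kinase that binds Wnt5a, had 652 UMIs in WT and 586 in KO, or 31.4 and 30.9 CPM, a log2 ratio of −0.02 (−0.18 to 0.14). Its WT levels ran from 12.9 CPM in erythroid cells to 57.0 CPM in the otic and epibranchial placode, which rested on 7 UMIs, and its KO levels from 10.8 to 56.2 CPM. In WT the interval of the placode overlapped that of every class but the erythroid. Of the 4 classes with at least 50 UMIs, none was past 1.5-fold. In WT and KO these were head mesenchyme with 40.9 and 28.8 CPM (log2 −0.51, −1.06 to 0.04), splanchnic mesoderm with 41.6 and 35.9 (−0.21), the intermediate neural tube with 36.4 and 37.0 (0.02) and cardiac muscle with 29.7 and 31.6 (0.09). Migrating NCCs, with 28 and 18 UMIs, had 31.4 and 22.3 CPM (−0.49, −1.43 to 0.41).

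Celsr1 and Celsr2 encode seven-pass cadherins that link the polarity of neighbouring cells, and the class with the highest level of each was in the neural tube in both libraries. Celsr1 lies on chromosome 15 (85898929 to 86033777, minus strand). Celsr1 had 573 UMIs in WT and 521 in KO over all cells (27.6 and 27.5 CPM, log2 −0.00, −0.18 to 0.17), and Celsr2 had 900 and 909 (43.3 and 48.0 CPM, log2 0.15, 0.01 to 0.28). In the floor plate Celsr1 reached 110.1 CPM in WT (80.3 to 147) and 85.2 in KO (58.7 to 120), and in the dorsal neural tube 87.2 and 88.6 CPM. These were the 2 highest classes of Celsr1 in each library, and their intervals overlapped.

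Celsr2 was highest in the floor plate, at 186 CPM in WT (146 to 233) and 201 in KO (159 to 251). It stood at 147 and 111 CPM in neurons, 124 and 133 in the ventral neural tube, 96.2 and 90.5 in the intermediate neural tube and 82.6 and 96.8 in the dorsal neural tube. Celsr1 was not higher in every part of the neural tube than outside it: the intermediate neural tube had 33.8 CPM in WT and 38.4 in KO, and pharyngeal and foregut endoderm 46.1 and 40.8, with intervals that overlapped. Among the classes with lower values of both genes, splanchnic mesoderm had 14.9 and 15.0 CPM of Celsr1 and 18.6 and 33.6 CPM of Celsr2, and endothelial cells had 11.2 and 8.74 CPM of Celsr1 and 23.9 and 23.8 CPM of Celsr2. The splanchnic value of Celsr2 was 1 of the 4 pairs at least 1.5-fold higher in KO (log2 0.85, 0.03 to 1.68). Neither gene had a class with at least 50 UMIs that was at least 1.5-fold lower in KO.

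The upstream sequence of Celsr2 is shown as that of the member with the steepest difference between epithelial and mesenchymal classes in WT, described next. Celsr2 lies on chromosome 3 (108390851 to 108415552, minus strand), and the window is chr3:108415580-108415829 of GRCm38.p6, from RefSeq, minus strand, 5′ to 3′, with each E-box CANNTG, a motif of basic helix-loop-helix factors, in capitals:
Celsr2: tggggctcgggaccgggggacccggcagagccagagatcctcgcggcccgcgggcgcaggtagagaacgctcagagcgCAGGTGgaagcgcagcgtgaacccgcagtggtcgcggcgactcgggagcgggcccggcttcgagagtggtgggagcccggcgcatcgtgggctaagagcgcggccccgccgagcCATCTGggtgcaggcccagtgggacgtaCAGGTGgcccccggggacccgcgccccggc
It had a GC content of 75.2% and 3 E-boxes, beginning 172, 58 and 30 bases before the RefSeq start, which lies upstream of the GENCODE start given above, and no GC box, SOX or TCF/LEF match.

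Levels were then compared between classes of the same library, in which cells share library and preparation. The first comparison set the dorsal neural tube and roof plate, which holds NCCs before they leave, against migrating NCCs. Celsr1 had 87.2 CPM in the dorsal neural tube and 34.8 in migrating NCCs in WT, a log2 ratio of 1.33 (0.60 to 2.06), and 88.6 and 22.3 CPM in KO, a ratio of 1.99 (1.16 to 2.87). Celsr2 had ratios of 1.16 (0.43 to 1.88) in WT and 1.38 (0.69 to 2.09) in KO. These 2 members were at least 2-fold higher in the dorsal neural tube in both libraries, as were 0.815% of 7241 genes, and 0 members were at least 2-fold lower in both, as were 1.45%. For neither gene did this hold under all settings: with each cell cut to 1000 UMIs the Celsr1 ratio in KO was 0.96, and the Celsr2 ratio in WT was 0.98 with all cells weighted equally and 0.86 without the 5% deepest cells.

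None of the other members was past 2-fold in 1 direction in both libraries. Ptk7 had ratios of −0.42 (−0.89 to 0.04) in WT and −0.23 (−0.86 to 0.38) in KO, and Vangl2 0.36 (−0.16 to 0.87) and 0.20 (−0.25 to 0.65). With a gate of 1 more marker the WT ratio of Vangl2 was 1.15 and the KO ratio of Ptk7 turned to 0.11. The Vangl1 ratio was −0.10 in WT (−0.92 to 0.67), which turned to 0.96 with each cell cut to 1000 UMIs, and −0.91 in KO (−1.79 to −0.10). The Ror2 ratio was −0.32 in WT (−1.47 to 0.73) and 1.15 in KO (0.20 to 2.11), with 11 UMIs in the WT dorsal neural tube. In WT the Ror2 ratio turned to 0.44 with a gate of 1 more marker. The Prickle1 ratio was 1.03 in WT and −0.95 in KO, with intervals that held 0. Scrib and Dvl2 had ratios from −0.27 to 0.36, and these turned with the setting: Scrib in WT went from 0.36 to −0.49 with the stricter gate, and Dvl2 in KO from −0.27 to 0.36 with that gate and to 0.66 with cells cut to 1000 UMIs. Whether these values differ between the libraries was not tested.

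The second comparison set 6 epithelial classes (neural tube, floor plate, placode and endoderm) against 6 mesenchymal classes (arch NCCs, somite derivatives, head mesenchyme and pharyngeal and splanchnic mesoderm). The names epithelial and mesenchymal stand for these lists of classes only. Whether the cells were epithelial was not measured, also not for the dermomyotome and splanchnic mesoderm of the second list. Celsr1 had 62.8 CPM in epithelial and 15.1 in mesenchymal classes in WT, a log2 ratio of 2.06 (1.62 to 2.52), and 57.6 and 14.6 CPM in KO, 1.98 (1.50 to 2.48). Celsr2 had ratios of 2.28 (1.92 to 2.65) and 1.87 (1.53 to 2.22). They were the 2 members at least 2-fold higher in epithelial classes in both libraries, as were 1.93% of 10886 genes, and they stayed past 2-fold under the 4 other settings tried.

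Ptk7 was distributed the other way, with 133 CPM in epithelial and 284 in mesenchymal classes in WT (log2 −1.09, −1.28 to −0.91) and 66.4 and 112 CPM in KO (−0.76, −1.05 to −0.47). The KO ratio fell short of 2-fold, so 0 members were at least 2-fold lower in epithelial classes in both libraries, as were 2% of genes. Vangl2 was slightly higher in epithelial classes, at 0.47 (0.25 to 0.69) and 0.49 (0.26 to 0.72). Prickle1 had −0.53 and −0.54 with intervals that held 0, and Vangl1, Scrib, Ror2 and Dvl2 had ratios between −0.23 and 0.32. The lowest of these, that of Ror2 in WT, was −0.96 with each cell cut to 1000 UMIs.

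**Figure D4:**
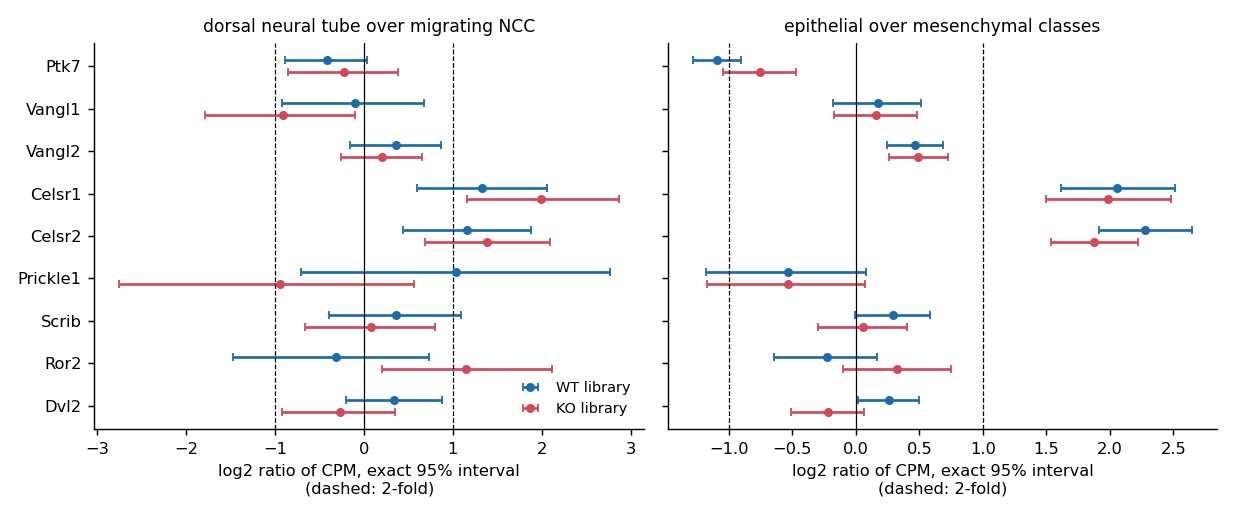
Log2 ratio of CPM between classes of the same library for each member, WT (blue) and KO (red), with exact 95% intervals and 2-fold marked by dashed lines. On the right, Celsr1 and Celsr2 lie between 1.87 and 2.28 and Ptk7 between −1.09 and −0.76.

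Vangl1 and Vangl2 encode four-pass membrane proteins of the core complex, and their class profiles differed. Vangl2 lies on chromosome 1 (172000960 to 172028444, minus strand) and Vangl1 on chromosome 3 (102153583 to 102204693, minus strand). Vangl2 had 1919 UMIs in WT and 1834 in KO (92.3 and 96.8 CPM, log2 0.07, −0.02 to 0.16) and was highest in the ventral neural tube, at 176 CPM in WT (113 to 261) and 213 in KO (137 to 318), and in the floor plate, at 169 and 183. It stood at 96.6 CPM in WT and 129 in KO in migrating NCCs (log2 0.42, −0.01 to 0.85) and at 124 and 148 in the dorsal neural tube. Endothelial cells, with 52.3 and 56.4 CPM, and erythroid cells, with 42.1 and 37.9, were the lowest of the order in both libraries.

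Of 13 classes with at least 50 UMIs of Vangl2, 2 were at least 1.5-fold higher in KO, namely pharyngeal and foregut endoderm (0.78, −0.03 to 1.60) and sclerotome and somite (0.70, −0.15 to 1.59), both with intervals that held 0. The interval lay below 0 in the intermediate neural tube, with 143 CPM in WT and 103 in KO (−0.48, −0.92 to −0.04).

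Vangl1 had 1105 UMIs in WT and 1112 in KO (53.2 and 58.7 CPM, log2 0.14, 0.02 to 0.26), and it was highest in erythroid cells. There it had 184 UMIs in WT and 123 in KO, or 158 CPM (136 to 183) and 222 CPM (184 to 265). The erythroid level was 297% of the library mean in WT and 378% in KO, whereas the other 8 members stood at 9.83% to 66.8% of theirs. Among erythroid cells 26.6% in the WT library and 43.0% in KO had a Vangl1 UMI, and 12.6% and 21.0% at the common depth of 1000 UMIs. In WT the erythroid interval was above that of every other class, and in KO it met those of the floor plate and the ventral neural tube, which both stood at 142 CPM. Endothelial cells, next after erythroid cells in WT with 97.9 CPM, had 108 CPM in KO.

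Vangl1 was 1.5-fold or more higher in KO in the floor plate, with 75.8 CPM from 31 UMIs in WT (51.5 to 108) and 142 CPM from 55 UMIs in KO (107 to 185), a log2 ratio of 0.91 (0.25 to 1.59). The interval also lay above 0 in erythroid cells (0.49, 0.15 to 0.83), head mesenchyme (0.51, 0.08 to 0.95) and cardiac muscle (0.43, 0.03 to 0.84). In migrating NCCs it had 51.7 CPM in WT and 65.8 in KO (0.35, −0.25 to 0.95). Erythroid cells were 4.62% of the WT and 2.26% of the KO library, and with the KO classes weighted to their WT shares the all-cell ratio of Vangl1 was 0.31.

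Prickle1 (chromosome 15, 93499114 to 93595891, minus strand), a cytoplasmic partner of the Vangl proteins, was the least counted member, with 425 UMIs in WT and 370 in KO (20.5 and 19.5 CPM, log2 −0.07, −0.27 to 0.14). Its highest 2 classes in both libraries were cardiac muscle, at 38.4 CPM in WT (29.5 to 49.2) and 36.9 in KO (26.6 to 49.9), and neurons, at 36.0 and 37.1. Migrating NCCs had 7 UMIs in WT and 16 in KO (7.86 and 19.9 CPM), and arch mesenchymal NCCs had 1 UMI in each. The 3 classes with at least 50 UMIs had ratios from −0.24 to 0.29. Most class differences of Prickle1 were not detectable at this depth.

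Dvl2 (chromosome 11, 70000595 to 70012301, plus strand), a Dishevelled protein that relays Frizzled signals, had 1718 UMIs in WT and 1432 in KO (82.7 and 75.6 CPM, log2 −0.13, −0.23 to −0.03). Of 11 classes with at least 50 UMIs, 2 were at least 1.5-fold lower in KO, both in the neural tube. The dorsal neural tube had 112 CPM in WT and 68.0 in KO (−0.73, −1.41 to −0.06), and the intermediate neural tube had 113 and 67.2 (−0.75, −1.29 to −0.23). Classes under this minimum had ratios in both directions, from −1.37 (−2.84 to −0.09) in the ventral neural tube, with 22 and 7 UMIs, to 1.05 (−0.53 to 2.89) in the otic and epibranchial placode, with 5 and 13. Outside the neural tube, the endoderm class had 108 and 56.2 CPM (−0.94, −2.06 to 0.07) and arch mesenchymal NCCs 88.2 and 47.7 (−0.89, −2.18 to 0.32). The floor plate, also neural, had 105 and 103 CPM (−0.03, −0.68 to 0.63), and migrating NCCs had 88.7 and 81.9 (−0.12, −0.61 to 0.37). Dvl2 overlaps Acadvl on the opposite strand, which had 264 UMIs in WT and 254 in KO, and whether counting used strand is not given in the sources used here. The WT and KO profiles of Dvl2 across the classes had an r of 0.17, the lowest of the members.

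Scrib (chromosome 15, 76047158 to 76069784, minus strand), a scaffold protein of the basolateral membrane that binds Vangl2, had 1128 UMIs in WT and 966 in KO (54.3 and 51.0 CPM, log2 −0.09, −0.22 to 0.04). Its levels were the most even of the members in WT, from 34.3 CPM in erythroid cells to 92.9 CPM in the floor plate, a range of 2.71-fold. In KO no class had an interval wholly below that of the highest, the placode, with 84.1 CPM. Scrib was at least 1.5-fold lower in KO in the floor plate, with 92.9 CPM in WT and 51.7 in KO (−0.85, −1.71 to −0.03), and in the intermediate neural tube, with 78.0 and 46.6 (−0.74, −1.39 to −0.11). The dorsal neural tube had 62.0 and 57.7 CPM (−0.10, −0.92 to 0.71).

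**Figure D5:**
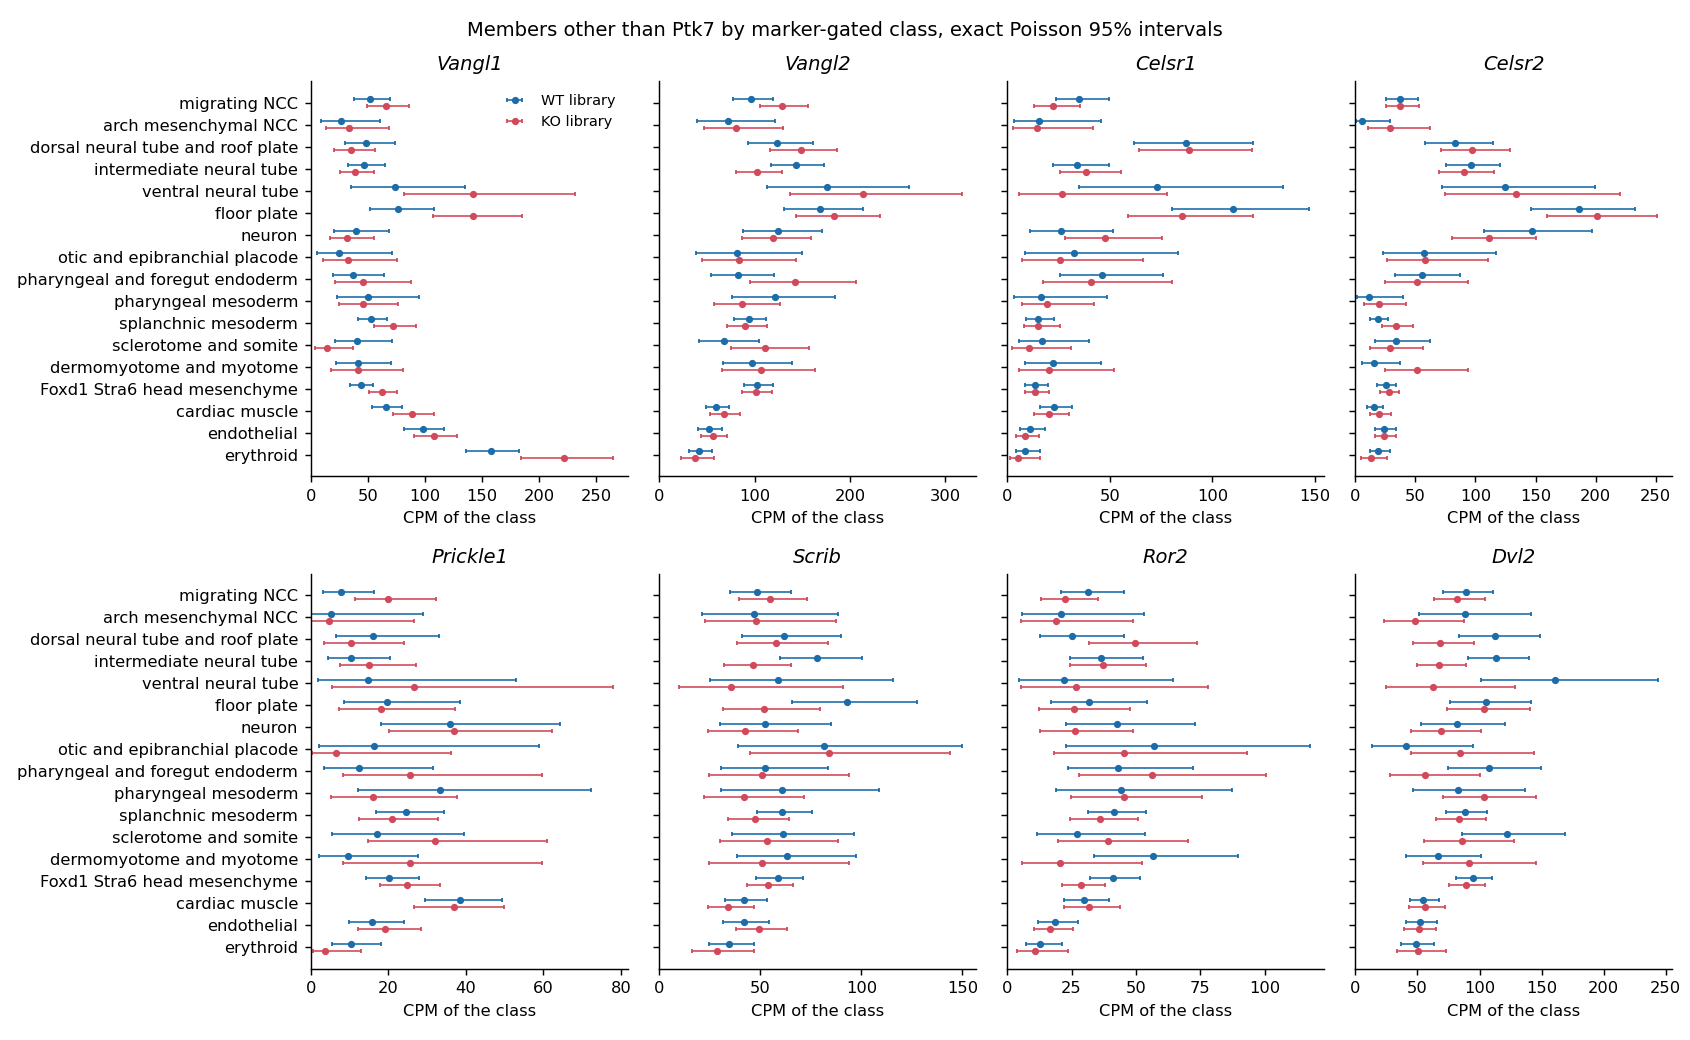
Level in CPM of the other 8 members in each marker-gated class of the WT (blue) and KO (red) libraries, with exact Poisson 95% intervals and a scale of its own for each gene. Celsr1 and Celsr2 stand high in the floor plate and Vangl1 in erythroid cells (158 and 222 CPM), and most WT and KO intervals overlap.

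Genes with the most similar class profile were sought for each member among 8278 genes with at least 500 UMIs that were neither members nor gate markers, by the lower of the WT and KO Pearson r of log2(CPM + 10) across 17 classes. The classes of a library share its preparation and depth, and the r values are a description. For Ptk7 they were Mapk1ip1l (r of 0.89 in WT and in KO), Limd2 (0.89 and 0.82) and Serf1 (0.81 and 0.81). For Vangl2 they were Msi1, an RNA-binding protein of neural progenitors (0.96 and 0.85), the Frizzled receptor gene Fzd3 (0.90 and 0.85) and Vezf1 (0.85 and 0.90). Sox2, a transcription factor of neural progenitors, and Fzd3 were among the 3 of both Celsr1 (Sox2 0.89 and 0.83, Fzd3 0.84 and 0.89) and Celsr2 (Sox2 0.88 and 0.90, Fzd3 0.86 and 0.93). The third was Golm1 for Celsr1 (0.86 and 0.78) and Dpysl5 for Celsr2 (0.83 and 0.84).

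The remaining members had less similar neighbours. Those of Vangl1 were Arf5 (0.73 and 0.70), the globin gene Hbb-bs (0.69 and 0.64) and Stradb (0.71 and 0.63), and those of Prickle1 were Zbtb20 (0.81 and 0.74), Igfbp5 (0.64 and 0.72) and Epn2 (0.64 and 0.65). Scrib was nearest to Hnrnpa0, Skiv2l2 and Enoph1, Ror2 to Cd24a, Cyp51 and Mpnd, and Dvl2 to Fto, Arhgap5 and Ralgps2, with r between 0.66 and 0.78. The WT and KO profiles of the member itself had an r of 0.53 for Prickle1, 0.59 for Scrib, 0.55 for Ror2 and 0.17 for Dvl2. These lie below the r values with the genes named, which were picked as the highest of 8278. Whether such likeness reaches past counting error was not tested. Among the members themselves, Celsr1 and Celsr2 had an r of 0.78 in WT and 0.84 in KO, and Vangl2 had 0.71 and 0.72 with Celsr1 and 0.66 and 0.81 with Celsr2. Ptk7 and Vangl1 had −0.68 and −0.66. Erythroid cells were lowest in Ptk7 and highest in Vangl1 in both libraries, and r without them was not computed.

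The rest of the pathway was read from a list of 38 genes, all measured, of which 33 had at least 200 UMIs. Over all cells 7 of them were past the ratio of 0.32 downwards in KO and 1 upwards, beside 10.6% and 3.86% of all genes, and their median log2 ratio was −0.15, beside −0.06 for all genes. Among receptors, Fzd7 had 125 CPM in WT and 97.5 in KO (−0.36, −0.44 to −0.27), and Fzd3 was the 1 gene past the limit upwards, with 148 and 194 CPM (0.39, 0.32 to 0.46). The co-receptor proteoglycans Sdc4 (−0.51, −0.64 to −0.38) and Gpc4 (−0.61, −1.005 to −0.22) and the ligand Wnt5b (−0.44, −0.82 to −0.06) were past the limit downwards. Wnt5a, the ligand of Ror2, had 73.8 and 88.8 CPM (0.27, 0.17 to 0.37), which is within the limit.

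Inside the cell, the Dishevelled gene Dvl1 (−0.43, −0.72 to −0.15), the formin gene Daam2 (−0.36, −0.66 to −0.06) and Gipc1, an adaptor that binds Vangl2 (−0.36, −0.52 to −0.19), were past the limit downwards. The other 25 genes had ratios from −0.32 to 0.27. Of the 5 genes under the minimum, Celsr3 (38 and 22 UMIs, −0.65) and Wnt11 (74 and 50 UMIs, −0.43) were past the limit downwards and Prickle3 (45 and 57 UMIs, 0.48) upwards, each with an interval that held 0. No other gene of the list had a ratio as low as that of Ptk7, the lowest being −0.61 for Gpc4 among the 33 and −0.65 for Celsr3 among all.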

How the data were processed

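The data are 2 droplet 3′ libraries, 1 WT and 1 KO. Per the labels' processing notes the authors used Cell Ranger 1.3.1, Scanpy and the mm10 build, whereas the methods name a human genome with ZsGreen1 as reference; the symbols are those of mouse. Per the methods, cells of very low or high depth, rarely found genes, and mitochondrial and ribosomal UMIs were removed, and doublets were called with DoubletFinder, though whether the deposited cells are without them is not given in the sources used here. The deposited values are a signal on a square-root scale, made by the authors from UMIs scaled to 1641 per cell. They were squared and divided by the smallest nonzero square of each cell, which gave whole UMIs for 100% of values within 0.01. Every cell column belonged to a labelled library.

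UMIs were summed per library or class. Levels carry Poisson, ratios conditional binomial and shares Clopper-Pearson intervals at 95%, with Python 3.11.15 and scipy 1.17.1. Interval and fold code was tested on simulated libraries. No test was made, since cells are not replicates. A ratio was left out where neither library had over 3 UMIs.

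A marker was on in a cell with at least 1 UMI and at least 3 times the count expected at its depth. A cell joined the class with most markers on, with a minimum of 2 (4 for cardiac muscle and erythroid, whose RNA was found in all classes), and ties were left out. A class was kept with at least 50 cells per library, 3 markers raised 2-fold and 2 of them in its first 10 genes by fold, more than any other class had there. Surface ectoderm and the macrophage and megakaryocyte class were not kept. Dlx4, Gdf7, Nkx3-2 and Cx3cr1 were not analysed here. No doublet caller was run.

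The members, gene lists, markers and folds were chosen with earlier results of these data known, and the gate and keeping rules after the values of the cells were seen. Genes named are the members, Prdm6, the 3 most similar genes per member, each of 38 listed pathway genes past a log2 ratio of 0.32, and, chosen afterwards, the nearest genes of Ptk7, overlapping genes, Postn and Wnt5a. Other settings were each cell weighted equally, 2 other scalings, thinning, the deepest 5% of cells left out, classes reweighted, other UMI minimums, a stricter gate and, added after seeing the data, shared barcodes left out.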

Additional observations from a re-analysis of the deposited data

How the results depend on the processing

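Of 71 other settings of the results over all cells, 68 left the value within its interval or the count within 1.5 times, and none of those of Ptk7 turned its direction (−1.37 to −1.18). The Ptk7 ratio was −1.37 with cells thinned to 1000 UMIs, and the Vangl1 ratio was 0.31 with KO classes weighted to WT shares. Without a UMI minimum, 6049 genes were past a log2 ratio of 0.32, compared with 1524. Pairs of member and class past 1.5-fold numbered 22, and 34 with a minimum of 20 UMIs and 13 with a gate of 1 more marker, under which fewer cells and UMIs were counted. Ratios of Vangl2, Celsr1 and Ror2 over all cells lay near 0 and changed sign between settings. Of 144 settings of the ratios between classes, 14 moved past the interval. Among these, 4 changed sign: Vangl1 in WT turned to 0.96 after thinning, Scrib in WT to −0.49 with the stricter gate, and Dvl2 in KO to 0.36 with the stricter gate and 0.66 after thinning, all in the dorsal neural tube over migrating NCCs. The other 10 kept their sign, among them Vangl2 in WT there (1.15, stricter gate), and in epithelial over mesenchymal classes Vangl2 in WT (0.83, stricter gate) and Ror2 in WT (−0.96, thinned). Signs also changed within the interval. With the stricter gate, Ptk7 in KO turned to 0.11 and Ror2 in WT to 0.44 in the dorsal neural tube over migrating NCCs. Both other scalings moved the median gene by 0.06. With 1 library per genotype and classes of 59 to 985 cells, depth limits what could be seen: at least 50 UMIs were reached in 3 classes for Prickle1, 4 for Ror2 and Celsr1 and 8 for Vangl1 and Celsr2, of 17.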
